A study of Mus musculus with 9 samples.

Results

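Smooth muscle contractile genes encode the actin, the myosin and the actin-binding proteins with which smooth muscle cells generate force. Mouse Acta2, Actg2, Tagln, Cnn1, Tpm1, Tpm2, Lmod1, Myl9, Myh11 and Myocd were followed here in striatal cell lines that model Huntington disease (HD). These 10 genes were taken by symbol from the 36410 rows of the count table, and all 10 passed the filter on low counts, which left 13508 genes for testing. The set was chosen by the name of its genes after the counts of Acta2 in HD-homo libraries were seen to lie far below those of control libraries. The comparison of HD-homo with control cells is therefore a description of these genes and carries no test for them. The 10 genes and all gene lists below were chosen with earlier results of these data known, which limits their calls in the other comparisons too.

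The data are RNA-seq counts from 9 libraries, 3 from each of 3 immortalized striatal lines whose labels give the strain C57/BL6. Control cells (STHdhQ7/Q7) carry a knock-in Htt exon 1 with 7 glutamine repeats on both alleles. HD-het cells (STHdhQ7/Q111) carry 7 repeats on 1 allele and 111 on the other, and HD-homo cells (STHdhQ111/Q111) carry 111 on both. All 3 lines therefore share a knock-in Htt exon and an immortalized state, no agent was applied, and there is a single line per genotype, which leaves an effect of the genotype and one of the line confounded: they cannot be told apart. The labels do not say whether the 3 libraries of a line came from separate cultures, and p values then measure only the spread between these libraries, which may be technical.

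Between 29507665 and 41197931 counts were assigned to genes per library, and 3 counts, taken as the smallest number that can show a gene, corresponded to 0.0710 to 0.101 normalized CPM (counts scaled to an equal library total). This floor covers counting error only. Replicates of a line differed by more than counting noise in every pair, with a variance of 2.2 times that of counting between control replicates 1 and 2 and 39.2 times between HD-homo replicates 2 and 3. Htt, which carries the alleles, measured 99.97 CPM in control, 62.3 CPM in HD-het and 20.2 CPM in HD-homo cells. These are cell populations, and fewer cells of a type cannot be told apart from less RNA per cell.

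In smooth muscle, actin filaments built from the Acta2 and Actg2 products slide past thick filaments of the Myh11 heavy chain once the Myl9 light chain is phosphorylated. Tropomyosins (Tpm1, Tpm2), calponin (Cnn1) and transgelin (Tagln) lie along the actin filament, and leiomodin (Lmod1) starts new filaments. Most of these genes are switched on by serum response factor (SRF) at CArG boxes, DNA elements in which CC and GG flank a run of A and T. SRF does so together with myocardin (Myocd) or its relatives Mrtfa and Mrtfb, which are released to the nucleus when free actin monomers become scarce. Acta2 and Tagln are also on in myofibroblasts and in many cultured cells of mesenchymal shape, whereas Myh11 and Lmod1 are held to be more particular to differentiated smooth muscle.

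RefSeq promoters of build GRCm38.p6 were available for 6 of the 10 genes (Acta2, Cnn1, Myl9, Tpm1, Tpm2 and Lmod1), and the 250 bases before each RefSeq start were searched on both strands. The GENCODE gene bounds given with each gene can begin further upstream, by 217 bases for Acta2 and 193 for Tpm1, so that the windows of these 2 genes lie in the first exon of the GENCODE model that begins furthest upstream. The windows of Myl9 and Lmod1 lie upstream of both starts. A CArG box, with 6 central bases that are all A or T, was present in 1 of the 6 and in 1.47% of the 32851 RefSeq promoters of the same length. A CArG-like element, in which 1 of the 6 central bases is C or G, was present in 2 of the 6 and in 7.24% of all promoters. The windows below are shown because they hold these elements in the promoters of Acta2 and Myl9, both of which had far fewer counts in HD-homo libraries than in HD-het libraries. Each line is the strand of the gene from 5′ to 3′, with the element in capitals and the distance counted to the RefSeq start.
Acta2, CArG-like, 84 bases before the start, chr19:34255438-34255467, minus strand: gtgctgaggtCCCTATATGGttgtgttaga
Acta2, CArG-like, 34 bases before the start, chr19:34255388-34255417, minus strand: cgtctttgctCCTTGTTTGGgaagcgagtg
Myl9, CArG box, 161 bases before the start, chr2:156775293-156775322, plus strand: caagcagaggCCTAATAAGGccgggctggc
Myl9, CArG-like, 99 bases before the start, chr2:156775355-156775384, plus strand: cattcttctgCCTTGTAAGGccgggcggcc

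The hexamer CATTCC, known as the MCAT element and bound by TEAD factors, was found in 3 of the 6 promoters and in 12.6% of all promoters, in either orientation. In all 3 of them it stood on the opposite strand, so that it reads GGAATG here, and it overlapped none of the elements above.
Acta2, 146 bases before the start, chr19:34255502-34255531, minus strand: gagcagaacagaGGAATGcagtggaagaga
Tpm1, 56 bases before the start, chr9:67049252-67049281, minus strand: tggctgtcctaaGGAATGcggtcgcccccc
Lmod1, 130 bases before the start, chr1:135324671-135324700, plus strand: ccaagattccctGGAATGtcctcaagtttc
These matches describe the letters in the windows only. Cnn1 and Tpm2, which also differed between the lines, held none of these elements in the 250 bases searched. Lmod1 and Tpm1 differed between the lines as well, and held a CATTCC match but no CArG box or CArG-like element.

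Together the 10 genes drew 0.442% ± 0.0262 (SD, n = 3) of all counts in control cells, against 1.21% ± 0.0588 for the HD-het line and 0.131% ± 0.00532 for HD-homo cells. Their summed level was 4113 to 4586 CPM in control libraries, 11739 to 12904 CPM in HD-het libraries and 1223 to 1348 CPM in HD-homo libraries. These sums were highest in the heterozygous line and lowest in the homozygous line. Acta2 alone measured 2271 CPM in control, 5290 CPM in HD-het and 91.8 CPM in HD-homo cells. Its low HD-homo level was the reason for choosing the set, so nothing is read from the HD-homo rank of the sum.

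**Figure D1:**
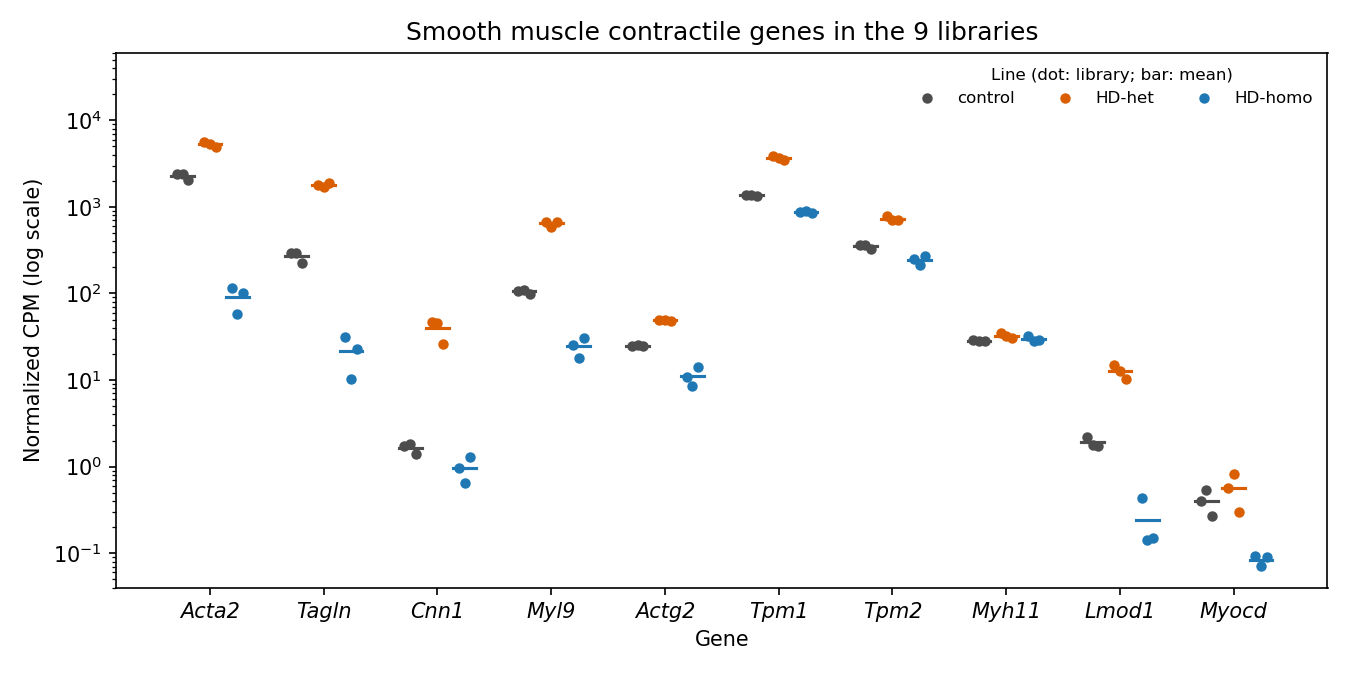
Normalized CPM (vertical axis, log scale) of the 10 smooth muscle contractile genes (horizontal axis) in the 9 libraries, with a dot for each library and a bar for the mean of a line. HD-het libraries sit above those of the other lines for all genes except Myh11 and Myocd, and the 3 lines lie close together for Myh11.

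In HD-het against control cells, 9 of the 10 genes were called higher and 0 lower by edgeR's quasi-likelihood test at an adjusted p under 0.05, where 65.1% of all tested genes were called, 33.8% higher and 31.4% lower. All 10 log2 fold changes were above 0, with a median of 1.32, against 0.03 over all tested genes. The libraries of the 2 lines did not overlap for 9 of the 10 genes, which was so for 74.0% of all tested genes. Because the set was chosen with earlier results known, these calls describe the genes and are not an independent test of the set.

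In HD-homo against HD-het cells, 9 of the 10 genes were called lower and 0 higher, where 71.6% of all tested genes were called, 36.0% higher and 35.6% lower. Libraries of the 2 lines did not overlap for 9 of the 10 genes and for 72.8% of all tested genes. All 10 log2 fold changes were below 0, with a median of -3.70, against 0.00 over all tested genes. Acta2 is counted in all of these figures, but its low level in the HD-homo libraries was the reason for looking at the set. Its own call is therefore not read as a result, and its p is not given. With Acta2 left aside, each of the other genes except Myh11 was called lower, and only Myh11 had overlapping libraries. Lmod1 and Myocd are among the genes called, but they passed the filter on low counts only through control and HD-het libraries. Their own calls are therefore not read as results, and no p is given for them here.

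In HD-homo against control cells, 9 of the 10 genes had a lower mean and their median log2 fold change was -1.63, against 0.01 over all tested genes. This is the comparison that brought the set up, and nothing is read from the size of that median. In the same comparison 58.6% of all tested genes were called, 29.6% higher and 28.9% lower, and the libraries did not overlap for 65.3% of all tested genes and for 9 of the 10. Both HD lines were set against the same control libraries.

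**Figure D2:**
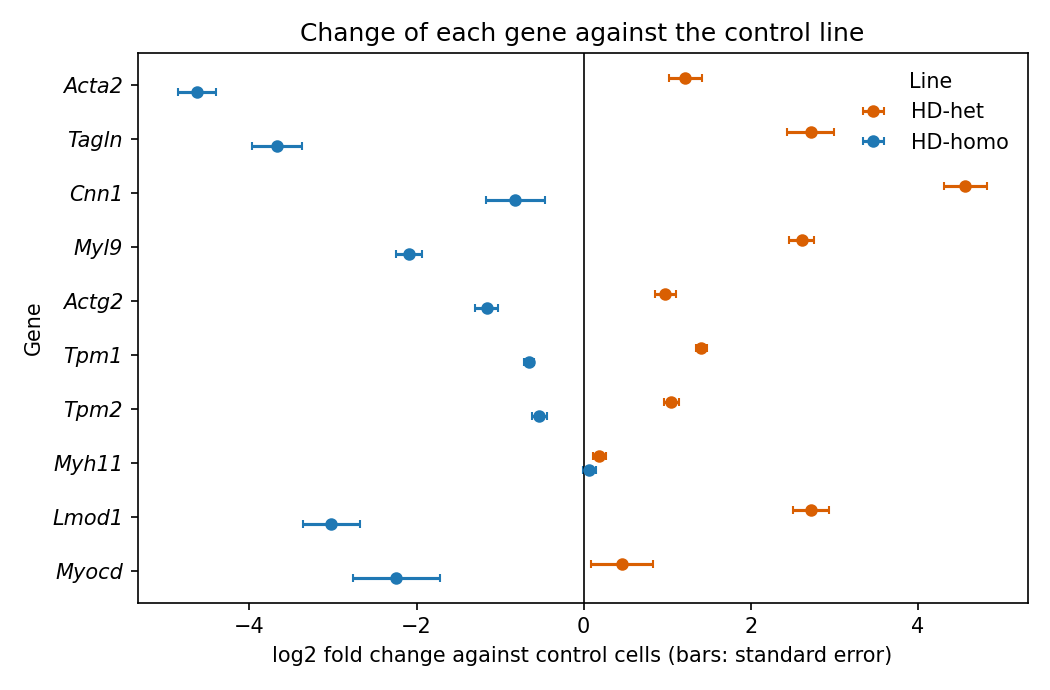
Log2 fold change (horizontal axis) of each gene (vertical axis) in HD-het and HD-homo cells, both against the same control libraries, with standard errors as bars. The HD-het points reach 4.57 for Cnn1 and the HD-homo points reach -4.63 for Acta2, while both points of Myh11 lie near 0.

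Acta2 (chr19:34241090-34255590, minus strand, GRCm38) encodes smooth muscle alpha-actin, the main actin of vascular smooth muscle. In the order of replicates 1 to 3 it measured 2384, 2374 and 2056 CPM in control cells, 5639, 5300.5 and 4931 CPM in HD-het cells, and 116, 57.7 and 102 CPM in HD-homo cells. Every HD-het library lay above the control range and every HD-homo library far below it. The mean of HD-het cells was 2.33-fold that of control cells, a log2 fold change of 1.22 ± 0.194 (SE; edgeR adjusted p = 0.00021). The mean of HD-homo cells was 24.7-fold lower than that of control cells and 57.6-fold lower than that of HD-het cells, and the log2 fold change against control was -4.63 ± 0.224. HD-homo replicate 2 was the lowest of the 3 HD-homo libraries here, as it was for all of the other genes except Tpm1.

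Actg2 (chr6:83512905-83536265, minus strand) encodes gamma-actin of enteric smooth muscle. It was at 24.5, 25.6 and 24.6 CPM in control cells, 49.5, 49.4 and 48.2 CPM in HD-het cells, and 10.8, 8.60 and 14.2 CPM in HD-homo cells. The order of the lines was that of Acta2, but the steps were smaller. Actg2 was 1.97-fold higher in HD-het than in control cells (log2 fold change 0.98 ± 0.131, edgeR adjusted p = 5.7e-05) and in HD-homo cells 4.38-fold below HD-het cells (edgeR adjusted p = 1.1e-07). HD-homo cells held 2.23-fold less than control cells.

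Tagln (chr9:45929619-45936058, minus strand) encodes transgelin, also called SM22 alpha, a calponin-related protein that bundles actin. Its level was 292, 297 and 227 CPM in control cells, 1810.4, 1678 and 1880.2 CPM in HD-het cells, and 31.8, 10.3 and 22.6 CPM in HD-homo cells. The lines were again fully apart. HD-het cells exceeded control cells 6.58-fold (log2 fold change 2.72 ± 0.283, edgeR adjusted p = 8.4e-06), and HD-homo cells were 83.0-fold below HD-het cells (log2 fold change -6.39 ± 0.341, edgeR adjusted p = 2.4e-08), the largest of the 10 differences between those lines. Against control cells HD-homo cells were 12.6-fold lower.

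Cnn1 (chr9:22099216-22109630, plus strand) encodes calponin 1, which restrains the myosin ATPase on actin. It gave 1.74, 1.84 and 1.39 CPM in control cells (56, 62 and 41 counts), 46.4, 45.8 and 26.2 CPM in HD-het cells, and 0.95, 0.639 and 1.28 CPM in HD-homo cells (31, 27 and 43 counts). HD-het replicate 3 was well below replicates 1 and 2 and still far above all other libraries, while the control and HD-homo ranges came close to each other. The rise in HD-het cells was 23.8-fold, the largest of the 10 (log2 fold change 4.57 ± 0.26, edgeR adjusted p = 9.6e-08). HD-homo cells were 41.2-fold below HD-het cells (edgeR adjusted p = 1.8e-08) and 1.73-fold below control cells (log2 fold change -0.82 ± 0.354).

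Lmod1 (chr1:135324807-135368065, plus strand), leiomodin 1, nucleates actin filaments in smooth muscle. Control cells had 2.21, 1.78 and 1.72 CPM, HD-het cells 14.8, 12.6 and 10.3 CPM, and HD-homo cells 0.429, 0.142 and 0.149 CPM. The HD-homo values rest on 14, 6 and 5 counts, so that their spread is wide, but they lay below all control libraries, which had 51 to 71 counts. HD-het cells were 6.59-fold above control cells (log2 fold change 2.72 ± 0.215, edgeR adjusted p = 1.1e-06). HD-homo cells were 52.3-fold below HD-het cells. No p is given for that difference, because Lmod1 passed the filter on low counts only through libraries of the other lines. HD-homo cells were 7.94-fold below control cells.

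Tpm1 (chr9:67022590-67049406, minus strand) and Tpm2 (chr4:43514711-43523765, minus strand) encode tropomyosins, coiled coils that cover the actin filament and that non-muscle cells also use. Tpm1 stood at 1377, 1385 and 1346 CPM in control cells, 3872, 3630.1 and 3438 CPM in HD-het cells, and 880.0, 888 and 857 CPM in HD-homo cells. Tpm2 stood at 361, 364 and 328 CPM in control cells, 776, 700.5 and 697 CPM in HD-het cells, and 250.4, 211 and 268 CPM in HD-homo cells. No line overlapped another for either gene, and replicates agreed closely. In HD-het against control cells Tpm1 was 2.66-fold higher (log2 fold change 1.41 ± 0.0628, edgeR adjusted p = 1.5e-08). Tpm2 was 2.07-fold higher in that comparison (log2 fold change 1.05 ± 0.0888, edgeR adjusted p = 1.8e-06). HD-homo cells were below HD-het cells 4.17-fold for Tpm1 (edgeR adjusted p = 3.4e-10) and 2.98-fold for Tpm2 (edgeR adjusted p = 4.2e-08), but below control cells by only 1.56-fold and 1.44-fold.

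Myl9 (chr2:156775420-156781658, plus strand) encodes the regulatory light chain whose phosphorylation starts smooth muscle contraction. It was measured at 108, 109 and 99.7 CPM in control cells, 662, 594 and 677 CPM in HD-het cells, and 25.5, 18.1 and 30.9 CPM in HD-homo cells. The ranges were widely separated. HD-het cells had 6.10-fold more than control cells (log2 fold change 2.61 ± 0.147, edgeR adjusted p = 8.9e-08), HD-homo cells 25.9-fold less than HD-het cells (edgeR adjusted p = 8.2e-10) and 4.25-fold less than control cells.

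Myh11 (chr16:14194535-14291372, minus strand), the smooth muscle myosin heavy chain, did not follow the other genes. It was at 29.3, 28.1 and 28.0 CPM in control cells, 34.5, 32.5 and 30.5 CPM in HD-het cells, and 32.3, 28.3 and 29.1 CPM in HD-homo cells. HD-homo libraries overlapped those of both other lines, and HD-het libraries lay just above those of control cells. The HD-het to control ratio was 1.14 (log2 fold change 0.19 ± 0.0741, edgeR adjusted p = 0.039). That call did not last: with edgeR it was lost with library totals in place of TMM normalization (adjusted p = 0.051), without the filter on low counts (0.062), and without control replicate 1 (0.064), 2 (0.11) or 3 (0.10) or HD-het replicate 1 (0.15) or 2 (0.080). HD-homo and HD-het cells were not called different (log2 fold change -0.12 ± 0.0737, edgeR adjusted p = 0.16), and the log2 fold change of HD-homo against control cells was 0.07 ± 0.0741.

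Myocd (chr11:65176561-65269989, minus strand), the coactivator that names the myocardin family, was close to the limit of detection. It gave 13, 18 and 8 counts in control cells, 20, 27 and 10 counts in HD-het cells, and 3 counts in each HD-homo library, the last of which equals the floor of 3 counts. In CPM these were 0.404, 0.535 and 0.270 in control cells, 0.564, 0.823 and 0.300 in HD-het cells, and 0.0920, 0.0710 and 0.0895 in HD-homo cells. HD-het and control libraries overlapped, and their difference did not pass the test (log2 fold change 0.46 ± 0.37, edgeR adjusted p = 0.29). The pooled HD-homo counts were 0.148 of those of HD-het cells at equal depth (95% counting interval 0.0645 to 0.301). Myocd passed the filter on low counts only through libraries of the other lines, so no p is given for this difference. Against control cells the ratio was 0.203 (95% counting interval 0.0865 to 0.426), with no test.

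Levels of different genes are set against each other per kilobase of exon (CPM/kb, exon union of the GENCODE annotation). Acta2 ranked first of the 10 in control cells at 1034 ± 84.9 CPM/kb and in HD-het cells at 2409 ± 161 CPM/kb (SD, n = 3). In HD-homo cells Tpm1 and Tpm2 came before it. It stood at 41.8 ± 13.9 CPM/kb there, below Tpm1 at 135 ± 2.47 CPM/kb and Tpm2 at 83.6 ± 10.2 CPM/kb. Tagln was second in HD-het cells at 900.2 ± 51.6 CPM/kb, where Tpm1 (562 ± 33.5 CPM/kb) and Myl9 (554 ± 38.1 CPM/kb) did not differ beyond their spread. Lmod1 and Myocd were the lowest of the 10 in all lines, with Myocd at 0.0628, 0.0875 and 0.0131 CPM/kb in control, then HD-het, then HD-homo cells.

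The genes of the set shared few exact 50-base words with other genes. Of the 50-base words of their transcripts, 0.326% for Acta2 (all with Actg1) and 0.340% for Myh11 (with Myh9 and Myh10) occurred in another gene. For Myocd 0.0155% did, and for the other 7 genes 0 did. Only identical words were counted, so reads assigned to a near-identical gene despite mismatches are not covered. Their effect on these values was not tested. Tagln overlaps Pcsk7 and Gm48529, and Lmod1 overlaps Gm22796, in each case on the opposite strand. The libraries were strand-specific, but whether the counting used strand is not given in the sources used here.

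Most of these proteins have close relatives that serve all cells, and the share of a family's counts held by the smooth muscle form is set beside the fold changes of those relatives. Acta2 made up 20.1% ± 1.48 (SD, n = 3) of the counts of the 6 actin genes in control cells, against 36.6% ± 1.90 for HD-het and 1.28% ± 0.350 for HD-homo cells. Cytoplasmic beta-actin (Actb) measured 2483, 2634 and 2435 CPM in the same order of lines and was not called in any comparison (edgeR adjusted p = 0.36 in HD-het and 0.77 in HD-homo against control cells). Cytoplasmic gamma-actin (Actg1) was not called in HD-het against control cells (edgeR adjusted p = 0.85) and fell in HD-homo cells by 0.52 on the log2 scale (edgeR adjusted p = 0.0011), but 37.4% of its 50-base words occur in other genes. Summed over the family, actin counts were 11166 to 11469 CPM in control, 14124 to 14866 CPM in HD-het and 6150 to 8001 CPM in HD-homo libraries.

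Tagln was 31.1% ± 2.53 of transgelin family counts in control cells, rising to 68.7% ± 0.741 with HD-het and dropping to 6.69% ± 2.72 with HD-homo cells. Its widely expressed relative Tagln2 moved the same way by less, with log2 fold changes of 0.45 in HD-het (edgeR adjusted p = 0.00054) and -1.05 in HD-homo (edgeR adjusted p = 9e-07) against control cells. Myl9 was 10.8% ± 0.629 of regulatory light chain counts in control cells, 37.4% ± 0.754 in the HD-het line and 3.60% ± 0.601 in the HD-homo line. Its non-muscle counterparts Myl12a (0.29 and -0.41) and Myl12b (0.38 and -0.39) had log2 fold changes of the same signs, all called. Myl12a and Myl12b share 16.2% and 17.6% of their 50-base words with their own family, so the split between them is uncertain.

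**Figure D3:**
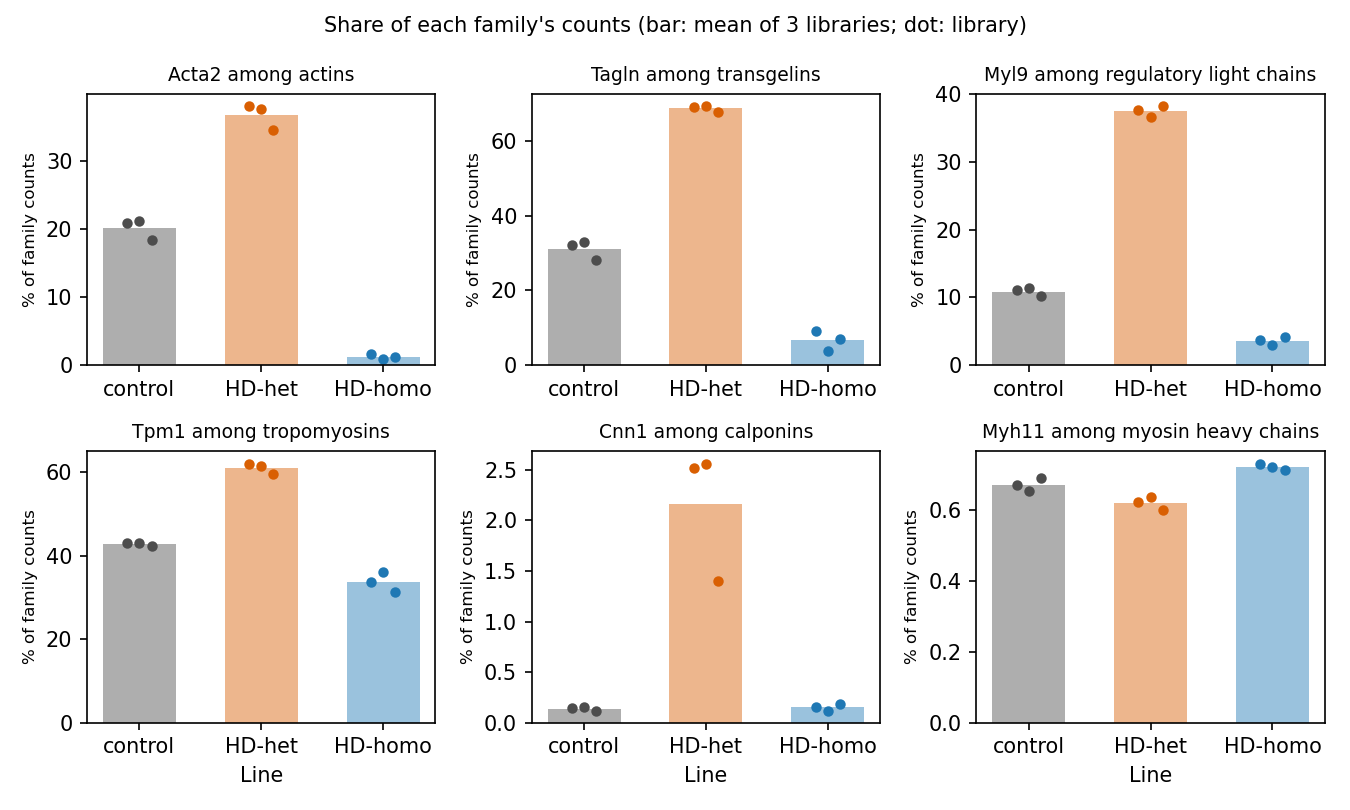
Percent of a gene family's counts (vertical axes, each from 0) that belong to the named gene in each line, with bars for the mean of 3 libraries and dots for libraries. The share is highest in HD-het cells in 5 of the 6 panels and lowest in HD-homo cells for Acta2, Tagln, Myl9 and Tpm1, whereas Cnn1 is about level in control and HD-homo cells and Myh11 stays between 0.620% and 0.722%.

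In the calponin family, Cnn1 was only 0.135% of calponin counts in control cells, 2.16% in the HD-het line and 0.150% in the HD-homo line, so that its HD-homo share was no lower than in control cells. The non-muscle calponins Cnn2 and Cnn3 were called in both HD lines against control, with log2 fold changes of 0.48 and 0.62 in HD-het and -0.82 and -1.15 in HD-homo cells. Tpm1 took 42.8%, 61.0% and 33.8% of tropomyosin counts in control, then HD-het, then HD-homo cells. Tpm3 was called lower in HD-het cells (log2 fold change -0.26, edgeR adjusted p = 0.0056) and Tpm4 higher (0.36, edgeR adjusted p = 0.0013), and neither was called in HD-homo against control cells (edgeR adjusted p = 0.18 and 0.34).

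Among the myosin heavy chains, non-muscle Myh9 held 87.0% of the family's counts in control cells and was not called in any comparison. Non-muscle Myh10 rose in HD-het cells (log2 fold change 1.28, edgeR adjusted p = 6.9e-07) and fell in HD-homo cells (-0.35, edgeR adjusted p = 0.0086). Smooth muscle Myh11 was 0.671%, 0.620% and 0.722% of the family in control, then HD-het, then HD-homo cells. Among leiomodins and tropomodulins, which cap or nucleate actin filaments, Lmod1 was 0.945%, 3.83% and 0.160%, while the muscle leiomodin Lmod2 had no count in any library. The most abundant of them, Tmod3, had log2 fold changes of 0.71 in HD-het (edgeR adjusted p = 4.9e-06) and -0.28 in HD-homo cells (edgeR adjusted p = 0.005). For Tmod2 the log2 fold change was -1.94 in HD-homo cells (edgeR adjusted p = 3.8e-07) and 0.29 in HD-het cells, where it was not called (edgeR adjusted p = 0.061).

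The RNA of Srf and of the MRTFs, known regulators of these genes, did not have the order of Acta2 over the lines. The activity of these factors was not measured, and their part in the differences was not tested. Srf measured 153 CPM in control, 146 CPM in HD-het and 141 CPM in HD-homo cells and was not called in any of the 3 comparisons (edgeR adjusted p = 0.37, 0.52 and 0.15 for HD-het against control, HD-homo against HD-het and HD-homo against control). Mrtfa, listed under its older name Mkl1, was lowest in HD-het cells, where the contractile genes were highest, at 71.8 CPM against 175 CPM in control cells (log2 fold change -1.28, edgeR adjusted p = 1.3e-06) and 134 CPM in HD-homo cells. Mrtfb, listed as Mkl2, was at 44.5, 41.2 and 46.2 CPM and was called only in HD-homo against HD-het cells (0.17, edgeR adjusted p = 0.041). Myocd did have the order of Acta2 in its means, at 0.403, 0.562 and 0.0842 CPM in control, then HD-het, then HD-homo cells. Its HD-het and control libraries overlapped, and its HD-homo libraries were at the floor. Because Myocd is so low, it made up 0.183%, 0.497% and 0.0465% of myocardin family counts in the same order of lines.

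Of 29 tested transcription regulators of smooth muscle, 11 (37.9%) were called higher and 6 (20.7%) lower in HD-het against control cells. Of all tested genes, 33.8% were called higher and 31.4% lower there. In HD-homo against HD-het cells 9 (31%) were called higher and 15 (51.7%) lower, beside 36.0% and 35.6% of all tested genes. Foxf1, a forkhead factor of visceral mesenchyme, had the largest rise in HD-het cells, from 37.6 to 176 CPM (log2 fold change 2.22, edgeR adjusted p = 1.4e-06), and was at 7.16 CPM in HD-homo cells. Mef2c, a muscle MADS-box factor, followed with 3.39, 11.6 and 0.324 CPM in control, then HD-het, then HD-homo cells. In the other direction Tead4, of the family that binds the CATTCC element, was 67.1 CPM in control, 24.8 CPM in HD-het and 40.5 CPM in HD-homo cells, called lower in both HD lines. The largest rises in HD-homo against control cells were those of Heyl and Gata6. Heyl, a Notch target, went from at most 1 count a library to 39 to 65 counts. Heyl is counted in the shares above, but it passed the filter on low counts only through its HD-homo libraries. Its call is therefore not read as a result. Gata6 went from 0.602 to 8.67 CPM (log2 fold change 3.83, edgeR adjusted p = 2e-08).

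A list of 30 other genes of the smooth muscle contractile apparatus, also drawn up with earlier results known, was read in the same way. Of the 26 tested, 17 (65.4%) were called higher and 4 (15.4%) lower in HD-het against control cells, with a median of 0.47. In HD-homo against HD-het cells 6 (23.1%) were called higher and 19 (73.1%) lower, with a median of -1.34. In HD-homo against control cells 3 (11.5%) were called higher and 17 (65.4%) lower, with a median of -0.55. Over all tested genes these shares were 33.8% and 31.4%, 36.0% and 35.6%, and 29.6% and 28.9%, in that order. Itga8, an integrin chain of smooth muscle and mesangium, had 1 or 2 counts in each control library, 150 to 212 counts in each HD-het library and at most 1 in each HD-homo library. Pgm5, found at the adhesion plaques of smooth muscle, had at most 3 counts in control and 60 to 85 counts in HD-het libraries. Itga8 and Pgm5 are counted in the shares above. Both passed the filter on low counts only through their HD-het libraries, so their own calls are not read as results. Itga7, the laminin-binding integrin chain of muscle, was level in control and HD-het cells at 113 and 116 CPM and fell to 2.47 CPM in HD-homo cells (log2 fold change -5.50, edgeR adjusted p = 9.2e-12).

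Some genes of that list went the other way. Smtn, which encodes the actin-binding smoothelin and is held to mark contractile smooth muscle, was highest in control cells at 141 CPM, against 88.1 CPM in HD-het cells (log2 fold change -0.68, edgeR adjusted p = 2.1e-05) and 115 CPM in HD-homo cells. Aoc3, a surface amine oxidase, was lower in HD-het (-0.75, edgeR adjusted p = 0.0097) and higher in HD-homo (0.96, edgeR adjusted p = 0.0012) than in control cells. Mustn1 was highest in HD-homo cells, at 0.985 CPM in control, 6.54 CPM in HD-het and 12.5 CPM in HD-homo cells. Its HD-homo libraries spread from 6.80 to 20.7 CPM. Des, the muscle intermediate filament desmin, stood at 1.72, 1.44 and 2.57 CPM in control, then HD-het, then HD-homo cells and was called higher in HD-homo against both other lines. Of the 4 markers taken to define smooth muscle, Myh11, Lmod1, Smtn and Des, all were detected in control cells, and Lmod1 alone of them had the order of Acta2 over the 3 lines.

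Of 27 other SRF target genes, 18 (66.7%) were called higher and 1 (3.7%) lower in HD-het against control cells. In HD-homo against HD-het cells 2 (7.41%) were called higher and 16 (59.3%) lower. In HD-homo against control cells 5 (18.5%) were called higher and 11 (40.7%) lower, with a median of -0.03. The shares over all tested genes are those given with the previous list. The lists are not separate sets. Several of the 27, Csrp1 among them, also belong to the previous list, Srf to the regulators, and Actb, Actg1, Myh9 and Tpm4 to the families above. Fhl1, a LIM protein of muscle, was the extreme, at 679.5 CPM in control, 1649.8 CPM in HD-het and 9.22 CPM in HD-homo cells. Csrp1, a LIM protein of smooth muscle, had the same order, at 332, 778 and 146 CPM. Filip1l and the immediate early gene Egr2 rose in both HD lines against control, by 2.77 and 1.61 for Filip1l and by 1.95 and 1.56 for Egr2 on the log2 scale. Fosl1, a subunit of AP-1, was the only one of the 27 called lower in HD-het cells, at 123 CPM against 228 CPM in control cells.

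**Figure D4:**
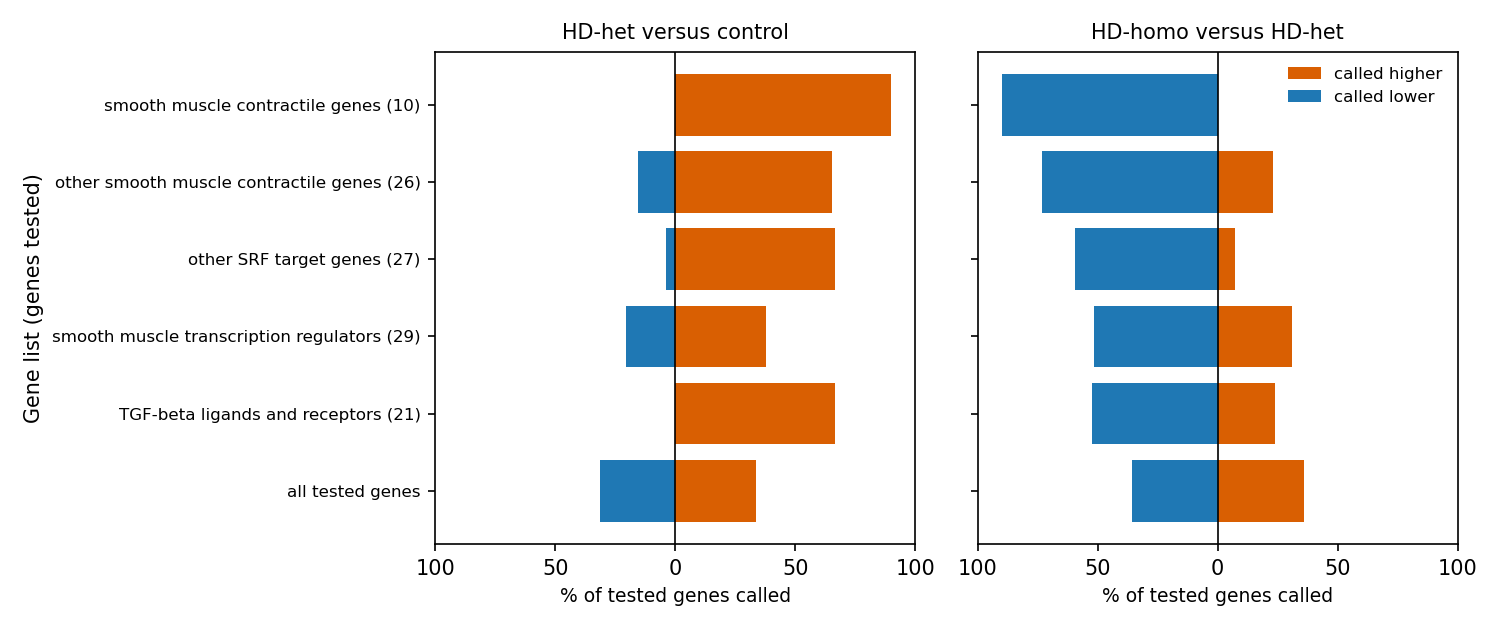
Percent of the tested genes of each list (vertical axis, number tested in brackets) that were called higher, to the right of 0, or lower, to the left, by edgeR (horizontal axis) in HD-het against control cells and in HD-homo against HD-het cells, with all 13508 tested genes at the bottom. The contractile genes reach 90% higher in the left panel and 90% lower in the right, where all tested genes stand at 33.8% and 35.6%. The right panel counts Acta2, whose low HD-homo level was the reason for looking at the set. It also counts Lmod1 and Myocd, which passed the filter on low counts only through control and HD-het libraries.

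Transforming growth factor beta is a known inducer of Acta2 and Tagln. Of 21 tested genes of its pathway (ligands, receptors, latency proteins, Smads and targets) 14 (66.7%) were called higher and 7 were not called in HD-het against control cells. In HD-homo against control cells 8 (38.1%) were called higher and 4 (19%) lower, with a median log2 fold change of 0.17. In HD-homo against HD-het cells 5 (23.8%) were called higher and 11 (52.4%) lower, with a median of -0.29. Over all tested genes the shares called higher and lower were 33.8% and 31.4%, 29.6% and 28.9%, and 36.0% and 35.6%, in that order. Some Smad genes are also among the regulators above. The ligand Tgfb2 measured 39.1 CPM in control, 145 CPM in HD-het and 44.0 CPM in HD-homo cells. Lrrc32, which holds latent transforming growth factor beta on the cell surface, was 0.104 CPM in control, 5.61 CPM in HD-het and 69.7 CPM in HD-homo cells, and the latency protein gene Ltbp2 followed with 0.750, 4.95 and 34.5 CPM. The receptors differed in direction in HD-homo against control cells. Tgfbr1 was lower (log2 fold change -0.33, edgeR adjusted p = 0.0092), whereas Tgfbr2 was higher, at 385 against 99.0 CPM (1.96, edgeR adjusted p = 3.1e-09), and so was Tgfbr3, at 92.1 against 5.28 CPM (4.13, edgeR adjusted p = 1.3e-09).

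The 5 genes whose pair of log2 fold changes against control lay closest to that of Acta2, among 9841 genes with at least 10 CPM in a line, were Actbl2, Pdpn, Plcb4, C530008M17Rik and Adra1d. Likeness here is a distance over the means of 3 lines that share their control libraries, from 0.0973 for Actbl2 to 0.566 for Adra1d on the log2 scale. Actbl2, an actin-like gene, stood at 9.37, 22.4 and 0.362 CPM in control, then HD-het, then HD-homo cells. Acta2 itself stood at 2271, 5290 and 91.8 CPM, so Actbl2 lay at a small and nearly constant fraction of Acta2. The words of Actbl2 were not themselves searched in other genes. Whether reads of Acta2 or other actins were counted for Actbl2 despite mismatches was not tested, so Actbl2 may not be an independent gene here. Pdpn, the membrane glycoprotein podoplanin, stood at 29.1, 63.8 and 1.07 CPM, and Adra1d, an alpha-1 adrenergic receptor of vascular smooth muscle, at 7.50, 21.2 and 0.203 CPM. Changes of any size in these directions were common: 1105 of the 13508 tested genes (8.18%) were called higher in HD-het and lower in HD-homo cells against the same control libraries. Fewer genes, 270 (2%), were so called with log2 fold changes above 1 in HD-het and below -1 in HD-homo cells.

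Markers of other cell types moved between the lines as well, and their part in these results was not tested. For all marker lists here and below, the shares of all tested genes stand beside the calls. These were 33.8% higher and 31.4% lower in HD-het, and 29.6% higher and 28.9% lower in HD-homo, each against control cells. Of 10 pericyte markers 5 were tested, all 5 were called higher in HD-het against control cells, and 4 were called higher and 1 lower in HD-homo against control cells. Their sum was 188 to 225 CPM in control, 567 to 640.2 CPM in HD-het and 281 to 368 CPM in HD-homo libraries, most of it from Pdgfrb and Cspg4. The pericyte markers Rgs5, Kcnj8, Vtn and Higd1b had at most 3 counts in any library.

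Fibroblast markers summed to 6607 to 8626 CPM in control, 16976 to 18424 CPM in HD-het and 12098 to 13490 CPM in HD-homo libraries. Of the 8 tested, 4 were called higher and 3 lower in HD-het against control cells, and 5 were called higher and 3 not called in HD-homo against control cells. Pdgfra rose 5.87 on the log2 scale in HD-homo cells (edgeR adjusted p = 2.1e-11), and the collagen gene Col1a2 measured 73.4 CPM in control, 3.15 CPM in HD-het and 1494 CPM in HD-homo cells. Tcf21 had no count in any library.

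Skeletal and cardiac muscle markers were low, with 8 of 20 at 3 counts or fewer in every library, among them Myf6 and Myh3. Of the 7 tested, 1 was called lower and 6 were not called in HD-het against control cells, and 3 were called lower and 4 not in HD-homo against control cells. Their sum of 57.0 to 61.6 CPM in control, 62.5 to 64.5 CPM in HD-het and 7.96 to 11.9 CPM in HD-homo libraries came mostly from the cardiac troponin gene Tnnt2, at 53.8, 59.2 and 7.72 CPM. Endothelial markers summed to 153 to 158, 178 to 195 and 16.6 to 21.7 CPM, nearly all of it Flt1, with 2 of the 4 tested called higher and 1 lower in HD-het and 1 called higher and 1 lower in HD-homo against control cells, while Tie1, Cldn5 and Emcn had no count in any library.

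The label striatal was also set against markers. The 15 striatal neuron markers summed to 183 to 213 CPM in control, 224 to 228 CPM in HD-het and 252 to 297 CPM in HD-homo libraries. Of the 6 that passed the filter, 3 were called higher and 1 lower in HD-het against control cells, and 2 were called higher and 4 not called in HD-homo against control cells. Most of the sum came from Foxp1 (93.8 CPM in control and 168 CPM in HD-homo cells), Map2 (62.9 and 59.7 CPM) and Tubb3 (42.4 and 37.8 CPM), while the dopamine receptor genes Drd1 and Drd2 had no count in any library beyond a single Drd2 count in HD-het cells. Neural progenitor markers summed to 5921 to 6383 CPM in control, 5337 to 5844.5 CPM in HD-het and 4194 to 4630.4 CPM in HD-homo libraries, mostly Vim. Of the 7 tested, 3 were called higher and 3 lower in HD-het against control cells, and 3 higher and 4 lower in HD-homo against control cells. Fabp7 and Dlx2 were higher in HD-homo against control cells, with log2 fold changes of 1.33 and 0.98 (edgeR adjusted p = 0.015 and 0.001). Sox2 and Pax6 were lower in HD-homo against control cells, with log2 fold changes of -4.54 (edgeR adjusted p = 1.2e-11) and -7.91. No p is given for Pax6. It had 4 to 5 counts in each HD-homo library and passed the filter on low counts only through the other lines. Of the 7 tested epithelial markers, 1 was called higher and 3 lower in HD-het against control cells and 3 higher and 4 lower in HD-homo against control cells, with sums of 13.5 to 27.5 CPM over all libraries. Of the 5 tested glial and microglial markers, 1 was called higher and 1 lower in HD-het and 3 higher and 1 lower in HD-homo against control cells, with sums of at most 5.49 CPM.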

How the data were processed

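RNA-seq was measured in 9 libraries, 3 from each of the control, HD-het and HD-homo lines, which were grouped by the titles in the labels. The authors isolated total RNA, selected poly(A) RNA and made directional libraries. The deposited values are whole-number counts per gene symbol with no normalization, and the submitters' processing notes name cutadapt, Bowtie 1.1.2, RSEM 1.3.0, DESeq2 and the builds GRCm38.p5 and mm10 without their roles. If the counts come from RSEM, they were rounded before deposit. Of 36410 symbols, 26 are dates and 2 are listed again, none of them a gene of the set.

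The analysis used edgeR 4.0.16 under R 4.3.3, with filterByExpr (minimum count 10, 13508 genes), TMM, 1 quasi-likelihood fit to all 9 libraries and the two-sided quasi-likelihood test, with Benjamini-Hochberg adjustment over all genes tested and a threshold of 0.05. The script was tested on simulated data. Normalized CPM divides counts by TMM-scaled totals, fold changes are ratios of mean normalized CPM, and log2 fold changes come from the fit. Totals of 29507665 to 41197931 counts set the precision. Alternatives were DESeq2 1.42.0 (its size factors within edgeR and its Wald test), library totals, other filters, only the lines compared, a replicate block, a prior count of 2, and each library left out.

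The 10 genes and all gene lists were chosen with earlier results of these data known. The text names the 10 genes, relatives of at least 1 CPM, Srf, Mrtfa, Mrtfb and Htt, at most the 2 largest rises and falls of each other list in each HD line against control among called genes, and 5 genes like Acta2. Tgfb2, Tgfbr2, Tgfbr3, Des, Map2, Tubb3, Vim, Myod1, Myog, Lmod2, the dopamine receptor genes and the marker genes at 3 counts or fewer fall outside this rule and were named after their values were seen. Positions are from GENCODE and promoters from RefSeq, both on GRCm38. A further gene list is not reported here.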

Additional observations from a re-analysis of the deposited data

How the results depend on the processing

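Over 17 alternatives for each comparison, the number of genes called ranged from 7762 to 9303 in HD-het against control cells (8797 as reported), from 8354 to 10033 in HD-homo against HD-het cells (9666) and from 6750 to 8372 in HD-homo against control cells (7910). Of the 10 contractile genes, 8 to 9 stayed called higher in HD-het against control cells and 7 to 9 lower in HD-homo against HD-het cells. Acta2 is counted in both ranges. The number of 7 came with at least 10 counts required in every library, which leaves Lmod1 and Myocd untested. No log2 fold change of the 10 genes that was called changed sign. Myh11 lost its call in HD-het cells under 7 alternatives, with adjusted p from 0.018 to 0.15 over all 17. The HD-homo against control log2 fold change of Myocd was -1.71 with a prior count of 2, and that of Lmod1 was -3.68 without HD-homo replicate 1. Counts of 3 to 14 per library limit both genes in HD-homo cells, and other scalings moved the median of all genes to at most 0.031.

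Replicate numbers are shared between the lines. The deviations of same-numbered libraries correlated at 0.0682, 0.245 and 0.186 for HD-het with control libraries and at 0.0322, 0.202 and 0.154 for HD-homo with HD-het libraries. For HD-homo with control libraries they correlated at 0.0226 to 0.0398. All of these lay above 0, while libraries with different numbers ran from -0.251 to 0.0842. Within a pair of lines, not every library correlated best with its own number: HD-homo replicate 1 did so with HD-het replicate 3 (0.0342), HD-het replicate 1 with HD-homo replicate 2 (0.0607) and control replicate 1 with HD-het replicate 2 (0.0842). The main fit held no replicate term, and whether same-numbered libraries shared a batch was not tested. With the replicate block the calls numbered 9160 in HD-het against control cells, 9938 in HD-homo against HD-het cells and 8372 in HD-homo against control cells, and 9 of the 10 genes were called in each of the first 2.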

Other observations

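The striated muscle actins stood beside Acta2 as a contrast within the same family. Acta1, skeletal muscle actin, measured 110 ± 1.90 CPM (SD, n = 3) in control, 147 ± 2.85 CPM in HD-het and 72.1 ± 8.29 CPM in HD-homo cells, and Actc1, cardiac actin, 28.4 ± 0.938, 39.8 ± 0.745 and 17.5 ± 2.70 CPM. Both were called higher in HD-het and lower in HD-homo cells, each against control, by edgeR, but their shares of all actin counts hardly moved, at 0.973%, 1.02% and 1.02% for Acta1 and 0.251%, 0.276% and 0.247% for Actc1, while the share of Acta2 ranged from 1.28% to 36.6%. For Acta1, 2.02% of its 50-base words occur in other genes, and for Actc1 0 do. These are identical words only, and whether reads of other actins were counted for Acta1 or Actc1 despite mismatches was not tested. Skeletal muscle factors were near 0 in the same libraries, with Myod1 and Myog at 4 counts or fewer.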
